A study of Mus musculus with 6 samples.

Results

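The genes described here code for the enzymes of glycolysis and pyruvate use, for enzymes of the tricarboxylic acid (TCA) cycle, and for the cell's oxygen-sensing pathway with some of its known targets. A list of 38 gene symbols was set against the gene column of the deposited array table, and a gene was kept where at least 1 probe set named it and no other gene. That left 37 of the 38 among 13213 genes measured in all: 19 of 20 for glycolysis and pyruvate, 9 of 9 for the TCA cycle and 9 of 9 for hypoxia. Eno1, which codes for the main enolase of most tissues, was left out because each of its 3 probe sets also named other genes. The table's symbols Pkm2 and Ero1l are given by their present names, Pkm and Ero1a.

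Both groups were cultures of mOS482, a mouse osteosarcoma cell line whose labels trace it to a spontaneous tumor in an RB p53 null background. In 1 group the cells stably carried a scrambled shRNA and in the other an shRNA against Sox2 (Sox2shRNA900 (A) in the labels), and both were selected with 200 ug/ml hygromycin in DMEM with 10% FBS. Triplicate plates of each were grown to 80% confluence, and RNA of each plate was put on 1 Affymetrix mouse genome 430A 2.0 array, a short-oligonucleotide array that reads mostly the 3′ end of each transcript. The replicates were therefore plates of 1 infected line per hairpin, and the p-values measure the spread between plates and arrays, not between independently derived lines.

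Glycolysis splits glucose into pyruvate in the cytosol, and lactate dehydrogenase can turn that pyruvate into lactate. Inside mitochondria the pyruvate dehydrogenase complex instead turns pyruvate into acetyl-CoA, which the TCA cycle oxidises. When oxygen is low, the prolyl hydroxylases of the Egln family no longer mark the alpha subunits of the hypoxia-inducible factor (HIF) for degradation, and HIF then raises glycolytic enzymes, pyruvate dehydrogenase kinases, and genes for vessel growth and pH control. Tumour cells, osteosarcoma cells included, often use much glucose also where oxygen is present.

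The deposited log2 values lie near 0 in the scrambled arrays for each probe set, so that a value given here is a difference from about the scrambled level and not a level of expression. No order of abundance between genes can be read from them. A difference is the mean of the 3 arrays labelled Sox2 shRNA minus that of the 3 scrambled arrays, given with the standard error of limma (n = 3 arrays per group). Adjusted p is Benjamini-Hochberg adjusted over all 13213 genes, and a gene was called at an adjusted p under 0.05. Values are listed for scrambled arrays 1, 2 and 3 and then for the arrays labelled Sox2 shRNA 1, 2 and 3.

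The targeted gene gave no check of the labels. Sox2, a transcription factor of stem cells, read 0.069, -0.039 and -0.033 in the scrambled arrays and 0.17, 0.055 and 0.58 in those labelled Sox2 shRNA, a difference of 0.27 ± 0.14 (adjusted p = 0.154), so that its probe set did not fall in the group named for the knockdown. That group also differed in array control probe sets. The 18 probe sets for the bacterial and phage RNAs that are added before hybridisation averaged 0.24, -0.13 and -0.22 in the scrambled arrays and 1.26, 0.58 and 0.56 in the arrays labelled Sox2 shRNA (difference 0.84, two-sided exact permutation p = 0.1, the smallest that 3 against 3 arrays can give). The 3′ minus 5′ difference of the actin control probe sets was likewise higher, at 1.55, 0.65 and 0.58 against 0.32, -0.027 and -0.32 (difference 0.94, exact p = 0.1). For the Gapdh control probe sets that difference was smaller, at 0.48, 0.24 and 0.18 against 0.25, -0.032 and -0.18, and the groups overlapped (difference 0.29, exact p = 0.3). The array labelled Sox2 shRNA 1 was the highest of the 6 in all 3 measures. The labelled cell type could not be checked against levels of its markers, since centring removed them. As differences, of 6 osteoblast markers 2 rose (Col1a1 by 3.52 and Alpl by 0.99), of 5 macrophage markers 2 rose and 1 fell, and of 4 endothelial markers limma called 0, with 1 at an unadjusted p under 0.05.

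Of the 37 genes, limma called 20, 7 as higher and 13 as lower in arrays labelled Sox2 shRNA. That is 54.1%, beside 38.5% of all genes tested. Over all genes, 16.8% were called higher and 21.8% lower. The median difference over the 37 genes was -0.16, with a median of 0.078 over all genes. Values of the 2 groups did not overlap for 25 of the 37, beside 56.9% of all genes. A difference of at least 2-fold was called for 3 of the 37: Eno2 and Egln3 were higher (2.68% of all genes) and Idh3a was lower (3.62% of all genes).

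**Figure D1:**
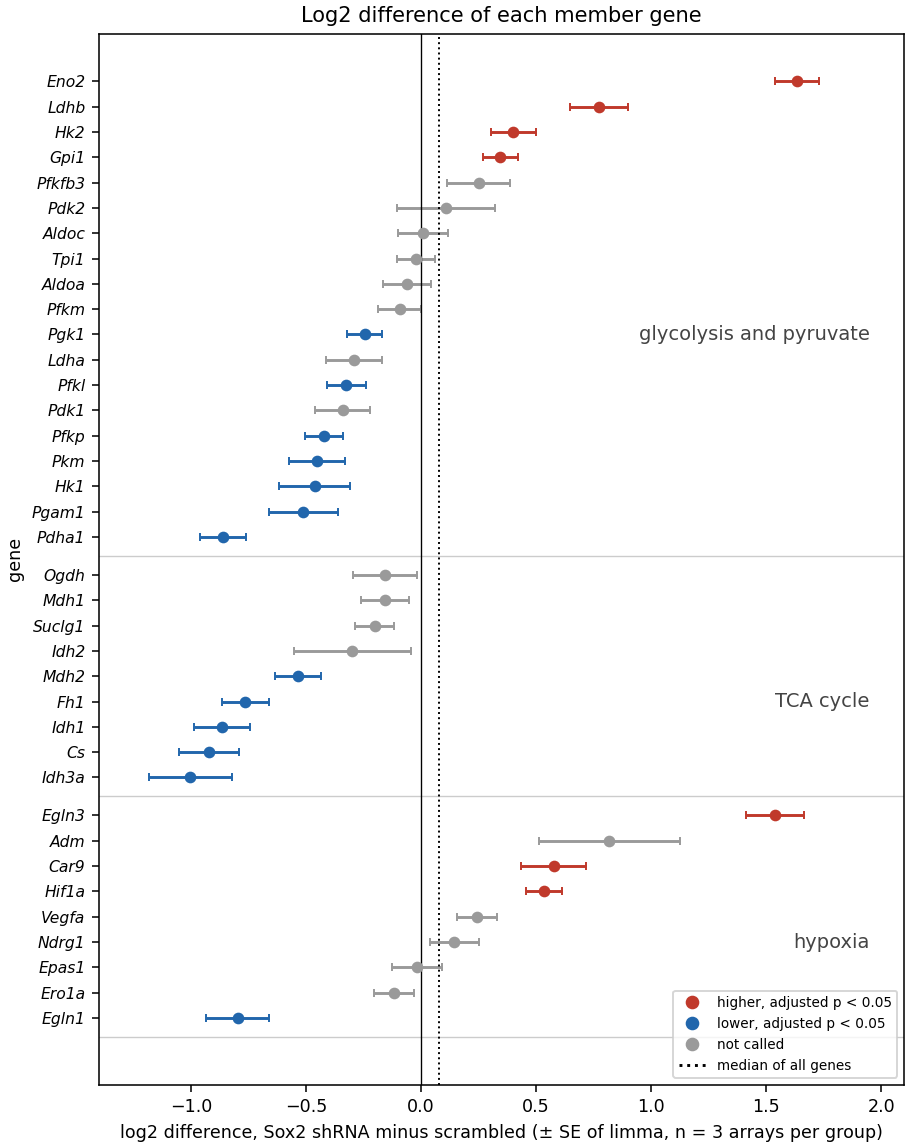
Log2 difference, arrays labelled Sox2 shRNA minus scrambled arrays, for each of the 37 genes by class, with the standard error of limma as bars (n = 3 arrays per group). Eno2 and Egln3 lie farthest to the higher side and all 9 TCA cycle genes lie below 0.

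TCA cycle genes were the most one-sided class. All 9 differences were negative, from -1.0 to -0.16 with a median of -0.53, and limma called 5 lower and 0 higher; at an unadjusted p under 0.05 the counts were 6 lower and 0 higher, beside 25.3% and 24.2% of all genes. The 5 that fell were Cs, Idh1, Idh3a, Fh1 and Mdh2, by 1.45-fold to 2.00-fold. In a bulk culture, fewer cells that express a gene and less of its RNA per cell cannot be told apart.

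Cs codes for citrate synthase, which joins acetyl-CoA to oxaloacetate and so opens the cycle. It read -0.12, 0.059 and 0.054 in the scrambled arrays and -1.20, -0.76 and -0.81 in those labelled Sox2 shRNA, a fall of 1.89-fold (-0.92 ± 0.13, adjusted p = 0.00131). Idh3a codes for the catalytic subunit of the NAD-dependent isocitrate dehydrogenase of mitochondria. Its values were 0.012, -0.10 and 0.024 in the scrambled arrays and -1.47, -0.86 and -0.74 in those labelled Sox2 shRNA, which made it the largest fall of the 37 genes (-1.0 ± 0.18, 2.00-fold, adjusted p = 0.00391). That rank depends on averaging its 3 probe sets (-1.37, -0.96 and -0.68). With the probe set of highest mean Egln1 (-0.78) fell more than Idh3a (-0.68). With that of largest variance Cs (-1.61) fell more than Idh3a (-1.37). For Cs and Idh3a, as means of 3 probe sets each, the groups lay well apart, and the array labelled Sox2 shRNA 1 was far lower than the others of its group. The Cs probe sets gave -1.61, -0.59 and -0.56. In the first, that array read -2.28, beside -1.26 and -1.21 in the others of its group. In the last it read -0.59, beside -0.51 and -0.65, and was not the lowest.

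Fh1 codes for fumarate hydratase, which adds water to fumarate to make malate. It stood at -0.063, 0 and 0.048 in the scrambled arrays and -0.94, -0.67 and -0.69 in those labelled Sox2 shRNA (-0.76 ± 0.10, 1.70-fold lower, adjusted p = 0.000879). Mdh2, the mitochondrial malate dehydrogenase that closes the cycle, stood at -0.057, 0.0044 and 0.039 in the scrambled arrays and -0.71, -0.46 and -0.45 in those labelled Sox2 shRNA (-0.53 ± 0.10, 1.45-fold lower, adjusted p = 0.0045). The cytosolic enzyme of the same reaction, Mdh1, was not called (-0.16 ± 0.10, adjusted p = 0.25), and its 4 probe sets ranged from -0.68 to 0.34. For Fh1 and Mdh2 every array labelled Sox2 shRNA was below every scrambled array.

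Idh1 and Idh2 code for the NADP-dependent isocitrate dehydrogenases of cytosol and of mitochondria, which make NADPH. Idh1 measured 0.042, -0.0060 and 0.043 in the scrambled arrays and -1.09, -0.79 and -0.63 in those labelled Sox2 shRNA (-0.86 ± 0.12, 1.82-fold lower, adjusted p = 0.00128). Its 2 probe sets gave -1.06 and -0.67, and the design of both allows cross-hybridisation. Idh2 measured -0.086, 0.015 and 0.081 in the scrambled arrays and -0.96, 0.078 and 0.00055 in those labelled Sox2 shRNA (-0.30 ± 0.25, adjusted p = 0.363). Its groups overlapped, and only the array labelled Sox2 shRNA 1 was low, whereas all 3 were low for Idh1. Ogdh, a subunit of the oxoglutarate dehydrogenase complex, and Suclg1, the alpha subunit of succinyl-CoA ligase, were not called (-0.16 ± 0.14, adjusted p = 0.384, and -0.20 ± 0.085, adjusted p = 0.0943), although the groups did not overlap for Suclg1.

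The array labelled Sox2 shRNA 1 gave the lowest of the 6 values for all 9 TCA cycle genes, beside 27.9% of all genes. That share is over genes of both directions, whereas all 9 of these had a negative difference. Of the 13213 genes, 5543 had a negative difference and 3682 had their lowest value in that array. The class median per array, against the scrambled mean, was -0.94, -0.45 and -0.44 in arrays labelled Sox2 shRNA 1, 2 and 3, in the same order as the hybridisation controls. With the mean of the hybridisation controls as a covariate in the limma fit, 1 of the 5 falls, that of Fh1, kept its call (-0.48, adjusted p = 0.047), and the class median was -0.26. Cs then read -0.47 (adjusted p = 0.057), Idh1 -0.54 (0.080 adjusted), Mdh2 -0.26 (0.233 adjusted) and Idh3a -0.43 (0.256 adjusted). That fit called 14.4% of all genes. The covariate itself did not overlap between the groups, so that with 6 arrays its part and that of the hairpin cannot be told apart. The fit also widened the standard error, for Fh1 from 0.10 to 0.13. All 5 falls kept their call when any 1 of the 6 arrays was left out.

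**Figure D2:**
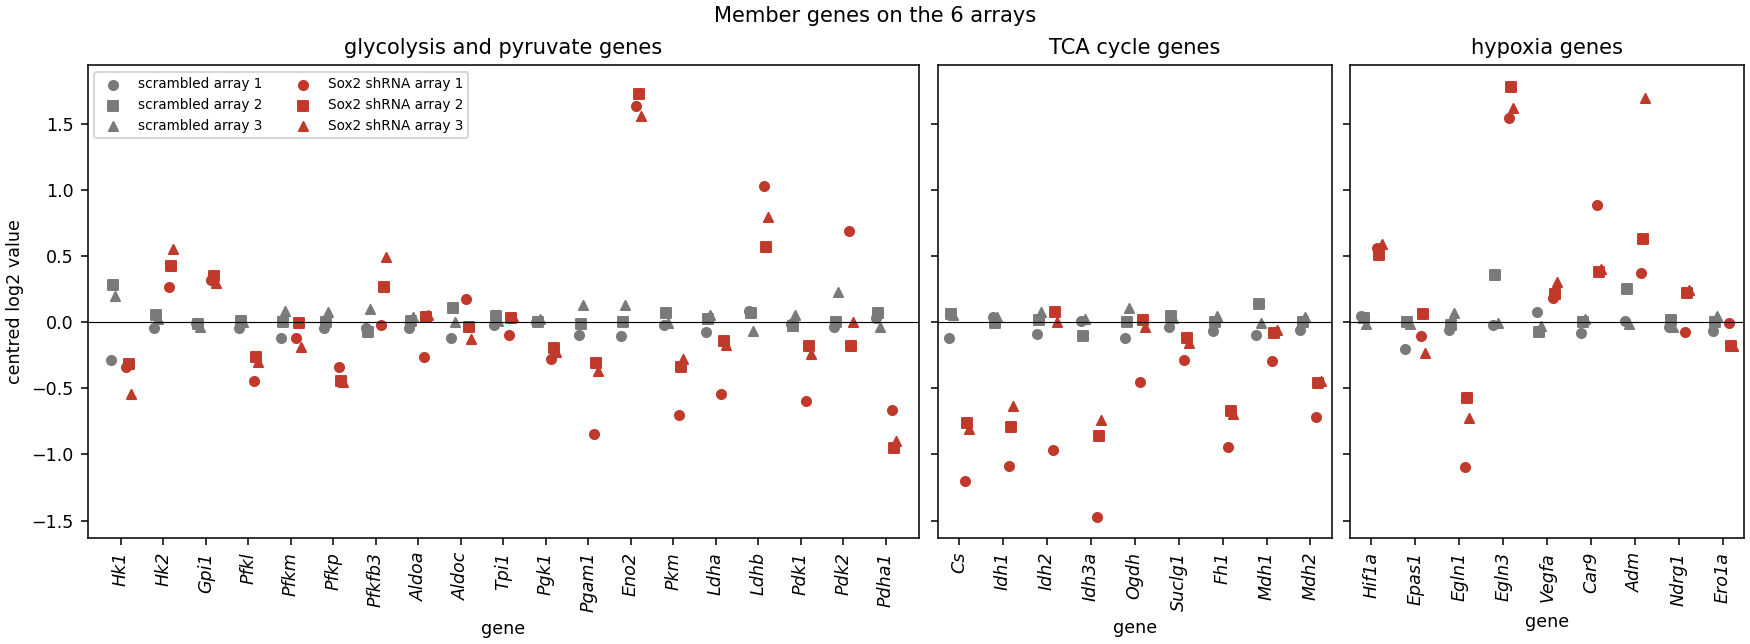
Log2 value of each gene in each of the 6 arrays, relative to about the scrambled level, with 1 panel per class, 1 point per array, and symbols for array 1, 2 and 3 of each group. The array labelled Sox2 shRNA 1 is the lowest point for all 9 TCA cycle genes, and all 3 arrays of that group lie far above the scrambled points for Eno2 and Egln3.

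Genes of glycolysis and pyruvate use moved in both directions. Of 19, limma called 4 higher (Hk2, Gpi1, Eno2 and Ldhb) and 7 lower (Hk1, Pfkl, Pfkp, Pgk1, Pgam1, Pkm and Pdha1). That is 57.9% called, beside 38.5% of all genes. The class median was -0.092. Apart from Eno2, Ldhb and Pdha1, the called genes differed by 1.18-fold (Pgk1) to 1.43-fold (Pgam1). The counts of 4 and 7 became 3 and 3 without scrambled array 1, 4 and 2 without scrambled array 2, 2 and 2 without scrambled array 3, and 3 and 1 with the covariate, under which the class median was 0.022.

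The hexokinases, which phosphorylate glucose on entry, moved apart. Hk1, the widely expressed form, read -0.29, 0.28 and 0.20 in the scrambled arrays and -0.33, -0.32 and -0.54 in those labelled Sox2 shRNA (-0.46 ± 0.16, adjusted p = 0.0481), so that scrambled array 1 lay just above the highest array labelled Sox2 shRNA. Hk2, the form that HIF is known to induce, read -0.041, 0.059 and 0.028 in the scrambled arrays and 0.27, 0.43 and 0.55 in those labelled Sox2 shRNA (0.40 ± 0.10, adjusted p = 0.0142), with all 3 arrays of that group above the scrambled ones. Gpi1, which turns glucose 6-phosphate into fructose 6-phosphate, had close replicates as the mean of 3 probe sets. It read -0.0081, -0.013 and -0.038 in the scrambled arrays and 0.32, 0.35 and 0.30 in those labelled Sox2 shRNA (0.34 ± 0.076, adjusted p = 0.00939). The 3 probe sets gave 0.71, 0.17 and 0.15. In the arrays labelled Sox2 shRNA the first read 0.88, 0.60 and 0.56 and the last 0.038, 0.21 and 0.14, so that array 1 deviated in opposite directions. Without probe sets whose design allows cross-hybridisation (_x_at and _s_at in their names) Gpi1 was not called (0.15, adjusted p = 0.208).

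Phosphofructokinase is the main control point of the pathway, and Pfkl, Pfkm and Pfkp are its liver, muscle and platelet forms. Pfkp fell, with -0.045, 0 and 0.079 in the scrambled arrays and -0.34, -0.44 and -0.45 in those labelled Sox2 shRNA (-0.42 ± 0.083, adjusted p = 0.0059). Its 2 probe sets gave -0.72 and -0.12, and with the one of highest mean alone it was not called (-0.12, adjusted p = 0.334). On values centred near the scrambled level, the probe set of highest mean is mostly that of the most positive difference. Here it is the one that fell less. Pfkl also fell, with -0.046, 0.012 and -0.00071 in the scrambled arrays and -0.44, -0.27 and -0.30 in those labelled Sox2 shRNA (-0.32 ± 0.085, adjusted p = 0.0193), while Pfkm was not called (-0.092 ± 0.094, adjusted p = 0.446). Pfkfb3, whose product makes an activator of phosphofructokinase, stood at -0.044, -0.070 and 0.10 in the scrambled arrays and -0.022, 0.27 and 0.49 in those labelled Sox2 shRNA (0.25 ± 0.14, adjusted p = 0.173), with the array labelled Sox2 shRNA 1 at the scrambled level and the other two of its group above it. Pfkfb3 was called higher without that array (0.39, adjusted p = 0.015) and with the covariate (0.66, adjusted p = 0.046).

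In the middle of the pathway the aldolases Aldoa and Aldoc, which cleave the six-carbon sugar, and Tpi1, which interconverts the triose phosphates, lay near 0 and were not called. Their differences were -0.061 ± 0.11, 0.0091 ± 0.11 and -0.021 ± 0.082 (adjusted p = 0.659, 0.952 and 0.85). Of the 5 Aldoa probe sets, 1 (0.098) aligned to chromosome 4 and the others to chromosome 7. That probe set has the highest mean, and it alone stands for Aldoa without cross-hybridising probe sets. Pgk1, the first ATP-making step, was called lower by a small margin, with -0.0013, 0.0035 and 0.027 in the scrambled arrays and -0.28, -0.20 and -0.23 in those labelled Sox2 shRNA (-0.24 ± 0.077, adjusted p = 0.0378). Its 3 probe sets differed widely, from -0.81 to 0.039, and the table placed 1 of them on chromosome 12, away from the gene on X.

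Pgam1, which moves the phosphate of phosphoglycerate, stood at -0.10, -0.016 and 0.13 in the scrambled arrays and -0.84, -0.31 and -0.37 in those labelled Sox2 shRNA (-0.51 ± 0.15, adjusted p = 0.0292). Pkm, the pyruvate kinase of most growing cells, stood at -0.021, 0.069 and -0.0037 in the scrambled arrays and -0.70, -0.34 and -0.27 in those labelled Sox2 shRNA (-0.45 ± 0.12, adjusted p = 0.0221), and its 1 probe set gives no separate value for its splice forms. In both genes the array labelled Sox2 shRNA 1 was the lowest by far. Both calls were lost when scrambled array 1, 2 or 3 was left out, and with the covariate Pgam1 read 0.024.

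Eno2 showed the largest rise of the 37 genes. It codes for the gamma enolase, known best as the enolase of neurons, and read -0.11, 0 and 0.13 in the scrambled arrays and 1.64, 1.73 and 1.56 in those labelled Sox2 shRNA, which is 3.11-fold higher (1.63 ± 0.10, adjusted p = 2.17e-05). The 3 arrays of that group were close together and far above the scrambled arrays. With the covariate the difference was 1.74 (adjusted p = 0.001).

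Lactate dehydrogenase is a tetramer of A and B subunits, of which A is a known HIF target and B favours the conversion of lactate to pyruvate. Ldha measured -0.070, 0.027 and 0.054 in the scrambled arrays and -0.54, -0.15 and -0.17 in those labelled Sox2 shRNA (-0.29 ± 0.12, adjusted p = 0.0945) and was not called, although the groups did not overlap. Ldhb measured 0.082, 0.070 and -0.069 in the scrambled arrays and 1.03, 0.57 and 0.80 in those labelled Sox2 shRNA and rose 1.71-fold (0.77 ± 0.13, adjusted p = 0.00246). Its 4 probe sets differed by 0.45 to 1.49, and 1 of them (0.68) aligned to chromosome 19, the others to chromosome 6. With the covariate the Ldhb difference was 0.41 (adjusted p = 0.154).

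Pdha1 codes for the E1 alpha subunit of the pyruvate dehydrogenase complex, the subunit that pyruvate dehydrogenase kinases phosphorylate and switch off. It read 0.031, 0.071 and -0.038 in the scrambled arrays and -0.67, -0.95 and -0.89 in those labelled Sox2 shRNA. The fall was 1.81-fold (-0.86 ± 0.10, adjusted p = 0.000516). Its 2 probe sets gave -1.35 and -0.37. With the latter alone Pdha1 was not called (adjusted p = 0.144). On these centred values that probe set has the highest mean because it fell less. Among those kinases, Pdk1 measured -0.012, -0.028 and 0.052 in the scrambled arrays and -0.60, -0.18 and -0.24 in those labelled Sox2 shRNA (-0.34 ± 0.12, adjusted p = 0.0578) and Pdk2 measured -0.035, 0 and 0.23 in the scrambled arrays and 0.69, -0.18 and 0.0053 in those labelled Sox2 shRNA (0.11 ± 0.21, adjusted p = 0.696). Neither was called, and Pdk2 was spread over a wide range in the arrays labelled Sox2 shRNA. The Pdha1 fall was larger with the covariate (-1.10, adjusted p = 0.0031).

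Of the 9 oxygen-sensing and hypoxia genes, limma called 3 higher (Hif1a, Egln3 and Car9) and 1 lower (Egln1), and the class median was 0.24. That is 44.4% called, near the 38.5% of all genes. The counts were 6 and 1 without the array labelled Sox2 shRNA 1, and 2 and 0 with the covariate. Hif1a codes for the oxygen-regulated alpha subunit of HIF, which is controlled mostly at the protein level. It read 0.051, 0.029 and -0.014 in the scrambled arrays and 0.57, 0.51 and 0.59 in those labelled Sox2 shRNA (0.53 ± 0.078, 1.45-fold higher, adjusted p = 0.00148). These replicates are close as means of 4 probe sets, whose differences lay between 0.49 and 0.57. Single probe sets were less even over the arrays labelled Sox2 shRNA. While 1 read 0.60, 0.61 and 0.54, another read 0.93, 0.17 and 0.30, and another 0.21, 0.75 and 0.70. With the probe set of largest variance alone the difference was 0.49 and was not called (adjusted p = 0.0777). Epas1, which codes for a related alpha subunit prominent in endothelial cells, was not called (-0.019 ± 0.11, adjusted p = 0.898).

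The prolyl hydroxylases Egln1 and Egln3 moved in opposite directions. Egln1, the main oxygen sensor in most cells, read -0.057, -0.022 and 0.072 in the scrambled arrays and -1.10, -0.57 and -0.73 in those labelled Sox2 shRNA and fell 1.74-fold (-0.80 ± 0.14, adjusted p = 0.00316), with both probe sets alike at -0.81 and -0.78. Egln3, a hydroxylase that is itself induced by HIF, read -0.021, 0.36 and -0.0042 in the scrambled arrays and 1.54, 1.78 and 1.62 in those labelled Sox2 shRNA and rose 2.91-fold (1.54 ± 0.13, adjusted p = 0.000108), with probe sets at 1.35 and 1.73. Scrambled array 2 was above the other scrambled arrays for Egln3, but remained far below the lowest array labelled Sox2 shRNA. That height came from 1 probe set, which read 0.78 there, while the other read -0.061. The 2 probe sets also ordered the arrays labelled Sox2 shRNA differently, at 1.93, 1.48 and 1.32 against 1.16, 2.09 and 1.93. With the covariate Egln3 was at 1.75 (adjusted p = 0.002) and Egln1 at -0.35 (adjusted p = 0.195).

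Known HIF targets outside metabolism gave a mixed picture. Car9, a cell-surface carbonic anhydrase that regulates pH, measured -0.083, 0 and 0.028 in the scrambled arrays and 0.89, 0.38 and 0.40 in those labelled Sox2 shRNA (0.58 ± 0.14, 1.49-fold higher, adjusted p = 0.0151); the call was lost without scrambled array 1 and with the covariate (0.19, adjusted p = 0.578). Adm, the vasodilator peptide adrenomedullin, measured 0.011, 0.25 and -0.013 in the scrambled arrays and 0.37, 0.63 and 1.70 in those labelled Sox2 shRNA (0.82 ± 0.31, adjusted p = 0.0679). Its group labelled Sox2 shRNA was spread widely, with array 3 far above the other two. Adm was called without array 1 of that group (1.08, adjusted p = 0.015) and, at a smaller difference, without its array 3 (0.42, adjusted p = 0.041).

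Vegfa, the main vessel growth factor, stood at 0.081, -0.073 and -0.030 in the scrambled arrays and 0.18, 0.22 and 0.31 in those labelled Sox2 shRNA (0.24 ± 0.086, adjusted p = 0.0568), and its 2 probe sets disagreed in sign, at -0.33 and 0.82. The stress-responsive gene Ndrg1 (0.14 ± 0.11, adjusted p = 0.292) and Ero1a, an oxidase that helps form disulphide bonds in the endoplasmic reticulum (-0.12 ± 0.088, adjusted p = 0.305), were not called. Their probe sets also lay on both sides of 0, from -0.22 to 0.45 for Ndrg1 and from -0.66 to 0.20 for Ero1a.

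**Figure D3:**
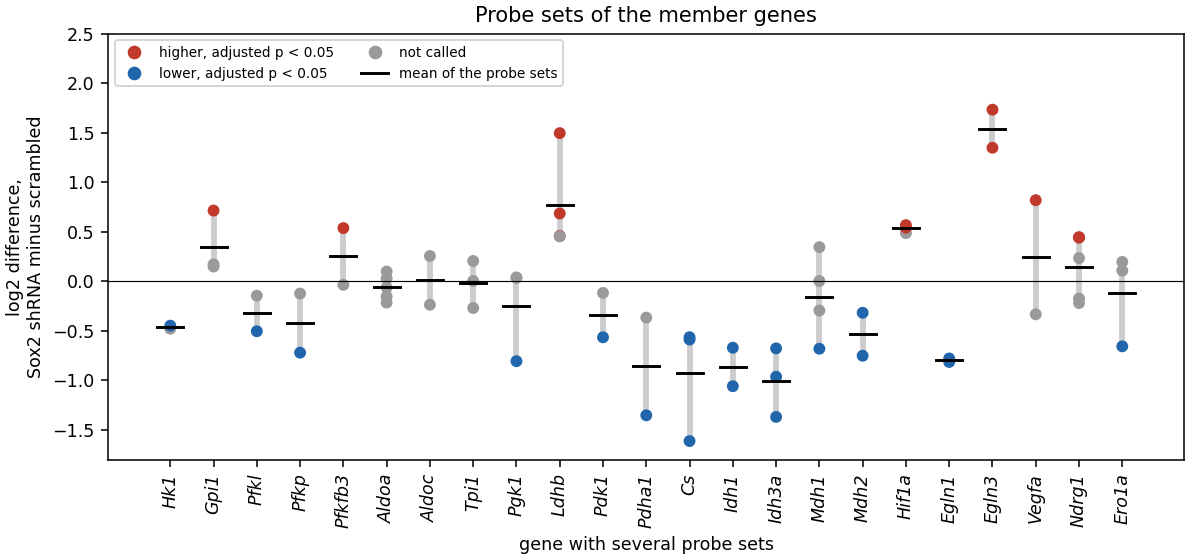
Log2 difference of each single probe set, arrays labelled Sox2 shRNA minus scrambled arrays, for the genes with more than 1 probe set. The 4 probe sets of Hif1a lie between 0.49 and 0.57, whereas those of Vegfa lie at -0.33 and 0.82.

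In all, 23 of the 37 genes had more than 1 probe set, and in 9 of these the probe sets differed in sign. No gene had probe sets called in opposite directions. Of the 78 probe sets, 16 were called higher and 23 lower in a fit over probe sets, which called 14.6% of 21556 probe sets higher and 20.5% lower.

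Promoter sequence was examined because HIF binds DNA at a short core of ACGTG or GCGTG. The 250 bases before each start site were searched on both strands for these letters, in RefSeq windows of GRCm38.p6; the palindrome CACGTG holds ACGTG on both strands and was counted on each. Of the 37 genes 34 were matched, with 53 windows, and Idh3a, Ndrg1 and Epas1 were not. ACGTG stood in at least 1 window of 17 of the 34 genes (50%), beside 23.0% of 10174 array genes with a window and 18.5% of all 27025 genes. Counted by window, it stood in 47.2% of these 53 and in 19.8% of the 12923 windows of array genes. Either core stood in 30 of 34 (88.2%), beside 55.7% and 41.5%. The median GC content was 59.2% for these genes and 58.4% for array genes. By class, ACGTG stood in 6 of 7 hypoxia genes, 9 of 19 of glycolysis and pyruvate and 2 of 8 of the TCA cycle, and the list was itself drawn up with known HIF targets in it. By call, it stood in 4 of 7 genes called higher, 4 of 12 called lower and 9 of 15 not called.

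The windows of 4 genes are shown 5′ to 3′ on the strand of the gene, with ACGTG or GCGTG and their reverse complements in capitals: the hydroxylases that moved apart (Egln3 at chr12:54203875-54204124 on the minus strand, Egln1 at chr8:124949255-124949504 on the minus strand), the largest rise (Eno2 at chr6:124769674-124769923 on the minus strand) and the window with the most ACGTG matches (Ldha at chr7:46845554-46845803 on the plus strand).
Egln3: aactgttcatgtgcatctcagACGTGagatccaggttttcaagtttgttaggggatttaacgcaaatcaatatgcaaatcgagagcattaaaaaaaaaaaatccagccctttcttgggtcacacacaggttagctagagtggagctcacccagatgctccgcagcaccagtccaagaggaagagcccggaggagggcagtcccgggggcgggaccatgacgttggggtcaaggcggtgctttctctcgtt
Egln1: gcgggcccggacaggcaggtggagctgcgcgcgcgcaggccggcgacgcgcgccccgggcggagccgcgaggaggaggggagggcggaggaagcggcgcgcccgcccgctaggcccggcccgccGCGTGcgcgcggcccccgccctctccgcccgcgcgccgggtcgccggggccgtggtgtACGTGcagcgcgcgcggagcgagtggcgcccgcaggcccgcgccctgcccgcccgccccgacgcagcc
Eno2: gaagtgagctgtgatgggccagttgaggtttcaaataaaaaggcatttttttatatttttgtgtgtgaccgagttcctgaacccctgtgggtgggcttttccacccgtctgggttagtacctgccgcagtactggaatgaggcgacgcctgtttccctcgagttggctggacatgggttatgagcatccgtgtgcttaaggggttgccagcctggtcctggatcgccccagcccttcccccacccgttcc
Ldha: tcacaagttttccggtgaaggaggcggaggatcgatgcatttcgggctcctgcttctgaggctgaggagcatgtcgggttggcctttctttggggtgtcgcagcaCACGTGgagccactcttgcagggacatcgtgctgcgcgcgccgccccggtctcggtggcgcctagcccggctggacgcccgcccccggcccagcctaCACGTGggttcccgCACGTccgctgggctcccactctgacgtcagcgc
Egln3 and Egln1 each hold 1 ACGTG, and Egln1 also 1 GCGTG. The Eno2 window holds neither, which says only that these letters are not in this window, and Eno2 nonetheless showed the largest rise. Ldha was not called, and the first of its 2 windows holds 5 matches, 4 of them from 2 copies of CACGTG. A match is a description of the letters and not a binding site.

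Paired forms of the same enzyme or sensor were compared within each array, as the value of the first gene minus that of the second. Of 12 pairs planned, 11 could be formed, since Eno1 had no probe set of its own, and the groups did not overlap in 8. Each of these 8 gave a two-sided exact permutation p of 0.1, the smallest possible, and 0.138 after Benjamini-Hochberg adjustment over the 11 pairs, so none passed 0.05. Among single genes the groups did not overlap for 56.9% of all genes, and no share was taken over other pairs of genes.

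The Egln1 minus Egln3 difference read -0.036, -0.38 and 0.076 in the scrambled arrays and -2.64, -2.35 and -2.35 in the arrays labelled Sox2 shRNA, a shift of -2.34. Ldha minus Ldhb read -0.15, -0.042 and 0.12 and then -1.58, -0.71 and -0.97, a shift of -1.06. Hk1 minus Hk2 read -0.24, 0.22 and 0.17 and then -0.60, -0.75 and -1.10, a shift of -0.86. In each of these pairs the second gene gained on the first in all 3 arrays. The shifts of the other pairs without overlap were smaller, at -0.57 for Idh1 minus Idh2, 0.55 for Hif1a minus Epas1, 0.38 for Mdh1 minus Mdh2, 0.33 for Pfkm minus Pfkp and -0.23 for Pfkl minus Pfkm. The groups overlapped for Pfkl minus Pfkp, Aldoa minus Aldoc and Pdk1 minus Pdk2.

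Other genes of the same pathways were read from lists of 6 kinds. Their counts stand beside 16.8% of all genes called higher and 21.8% called lower. In the list of further genes of the pyruvate dehydrogenase complex and its regulators, the 5 measured of 8 listed all fell, 4 of them by more than 2-fold, with a median of -1.25. That list does not hold Pdha1, which fell, or the kinases Pdk1 and Pdk2, which were not called. Pdk4, a kinase that rises in fasting muscle and switches the complex off, fell by 1.81 ± 0.17 on the log2 scale (adjusted p = 0.00018). Dld, the E3 subunit shared with the oxoglutarate dehydrogenase complex, fell by 1.80 ± 0.21 (adjusted p = 0.000581), and Pdk3, a further kinase, fell by 1.25 ± 0.16 (adjusted p = 0.000722). The 2 remaining genes, named after their values were seen, were the E1 beta subunit Pdhb (-1.18 ± 0.15, adjusted p = 0.000775) and the E2 subunit Dlat (-0.54 ± 0.081, adjusted p = 0.00174). Catalytic subunits and kinases that inhibit them were both among the genes that fell. All 5 kept their call with any 1 array left out and with the covariate, where their median was -0.70. With each gene's probe set of highest mean, which favours the smaller falls on these centred values, 4 were called. Under quantile normalization 1 was called, Pdk4.

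Further TCA cycle genes were lower in 8 and higher in 2 of 15 measured, with a median of -0.34. Sdhd, a membrane anchor of succinate dehydrogenase, fell by 1.22 ± 0.12 (adjusted p = 0.00028), and Idh3g, a regulatory subunit of the same enzyme as Idh3a, fell by 0.92 ± 0.083 (adjusted p = 0.000166). Suclg2, the GTP-forming beta subunit of succinyl-CoA ligase, rose (1.15 ± 0.11, adjusted p = 0.000257). Its direction was opposite to most of the cycle, as was that of Pcx, named after its value was seen, which codes for pyruvate carboxylase (0.96 ± 0.10, adjusted p = 0.000332). With the covariate 4 were lower and 2 higher.

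Of 11 further glycolysis genes 2 rose and 4 fell, with a median of -0.0059. Eno3, the muscle enolase, fell (-0.84 ± 0.092, adjusted p = 0.0004), in the direction opposite to Eno2. Pgm1 and Pgm2, phosphoglucomutases that link glycolysis to glycogen and to pentoses, fell as well (-0.82 ± 0.093, adjusted p = 0.000453, and -0.77 ± 0.12, adjusted p = 0.00217). Without scrambled array 2 or 3 or with Sox2 shRNA array 2 left out 1 rose and 3 fell, and with the covariate 1 rose and 2 fell. Gapdh had only array control probe sets, which were left out of the fit over genes.

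Transporters of glucose, lactate and pyruvate were higher in 2 and lower in 4 of 8, with a median of -0.22. Bsg, the chaperone that brings lactate transporters to the membrane, fell by 1.21 ± 0.15 (adjusted p = 0.000646), and Slc16a1, the lactate transporter that it escorts, fell by 0.96 ± 0.11 (adjusted p = 0.000585). Mpc2, a subunit of the mitochondrial pyruvate carrier, fell by 0.77 ± 0.11 (adjusted p = 0.00129). The glucose transporter gene Slc2a1, a known HIF target, fell by a small margin (-0.33 ± 0.10, adjusted p = 0.0374), and that call was lost when scrambled array 1, 2 or 3 was left out. The count of higher genes was 0 without scrambled array 1 or 3 and 1 without scrambled array 2, and with the covariate 0 were higher and 2 lower.

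In the HIF pathway beyond the genes above, 1 of 8 rose and 3 fell, with a median of 0.11. Cited2, which competes with HIF for its coactivator and is itself a HIF target, fell by 1.54 ± 0.13 (adjusted p = 0.000114). Eloc, part of the ubiquitin ligase that removes HIF, fell by 0.47 ± 0.090 (adjusted p = 0.00516). With its probe set of highest mean, the one that fell less, Eloc was not called (-0.092, adjusted p = 0.476). Egln2, the third prolyl hydroxylase, rose (0.50 ± 0.13, adjusted p = 0.0175), but not when scrambled array 1, 2 or 3 was left out, when 0 were higher and 2 lower, as with the covariate; without Sox2 shRNA array 3 the counts were 3 and 3. Of 19 other hypoxia-induced genes 4 rose and 8 fell, with a median of -0.25. Angptl4, a secreted inhibitor of lipoprotein lipase, and Pgf, placental growth factor, rose (0.99 ± 0.10, adjusted p = 0.000226, and 1.01 ± 0.14, adjusted p = 0.00105). Angptl4 stood at 1.59 with its probe set of highest mean and at 0.39 without cross-hybridising probe sets (adjusted p = 0.0499). Higd1a, a small mitochondrial protein, fell (-0.91 ± 0.092, adjusted p = 0.000282). Higd1a was not called with its probe set of highest mean, the one that fell less, or without cross-hybridising probe sets (-0.26 in both, adjusted p = 0.101 and 0.0783). The counts in this list were 7 and 9 without Sox2 shRNA array 1, 4 and 5 without scrambled array 2, and 3 and 5 without scrambled array 3. The balance of the list turned with the covariate, to 5 and 1 with a median of 0.029, and with the probe set of highest mean, to 5 and 4 with a median of 0.10. The latter rule favours positive differences on these centred values.

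**Figure D4:**
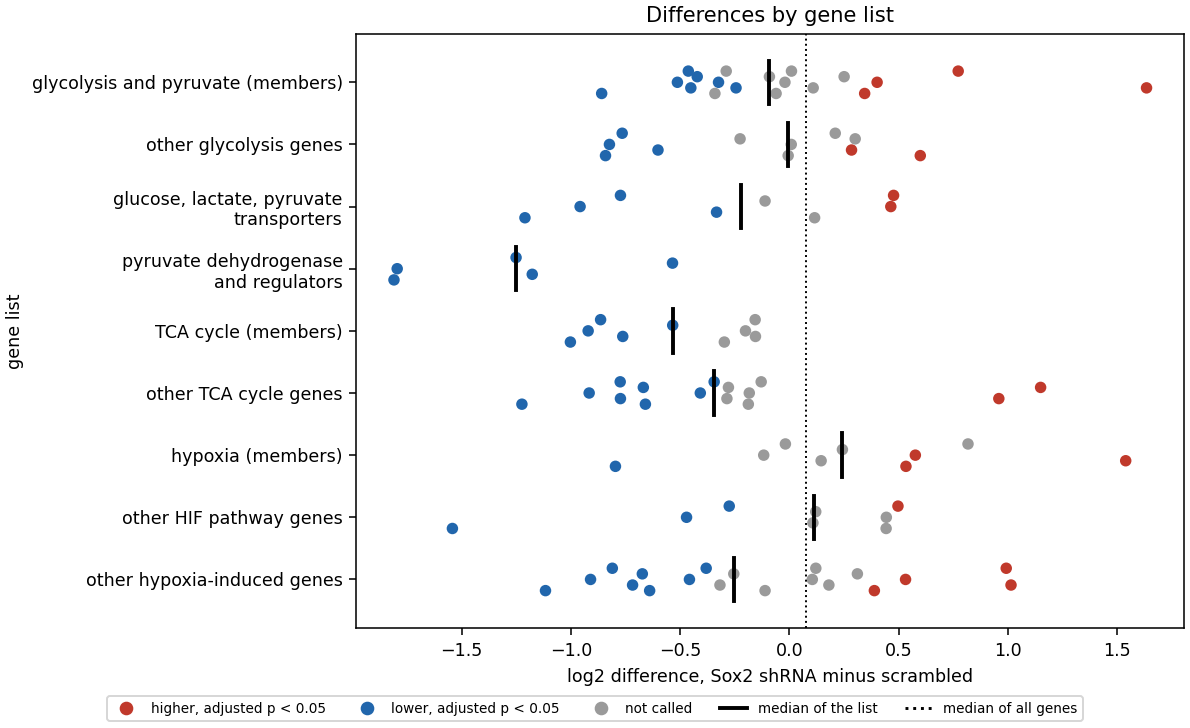
Log2 differences of the genes in each class and each further pathway list, with 1 point per gene and the median of each list marked. The list of the pyruvate dehydrogenase complex lies wholly below 0, while the hypoxia and HIF lists spread to both sides.

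Leaving out 1 array at a time, 12 of the 20 called genes kept their call under all 6 omissions: Pfkp, Eno2, Ldhb, Pdha1, Cs, Idh1, Idh3a, Fh1, Mdh2, Hif1a, Egln1 and Egln3. The other 8 lost it in at least 1. Hk1 lost it without scrambled array 2 or 3 or Sox2 shRNA array 2 or 3, Hk2 without scrambled array 1 or 3, Gpi1 without scrambled array 3, Car9 without scrambled array 1, Pgk1 without any scrambled array or Sox2 shRNA array 2 or 3, and Pfkl, Pgam1 and Pkm without any 1 scrambled array. Besides Pfkfb3 and Adm, omission of Sox2 shRNA array 1 brought calls for Pdk1 (-0.21, adjusted p = 0.044), Vegfa (0.27, adjusted p = 0.028) and Ndrg1 (0.25, adjusted p = 0.021). With the hybridisation controls as a covariate, 6 of the 20 kept their call, namely Hk2, Eno2, Pdha1, Fh1, Hif1a and Egln3. All of these but Hk2 also kept it without each array. Since the covariate did not overlap between the groups, kept and lost calls do not separate array quality from the hairpin. With each gene's probe set of highest mean, 10 of the 37 were called higher and 8 lower. Glycolysis and pyruvate turned from 4 and 7 to 5 and 2, and Hk1, Pfkl, Pfkp, Pgk1 and Pdha1 were then not called lower. Since values are centred near the scrambled level, this rule mostly takes the probe set with the most positive difference. A shift toward higher is thus built into the rule. Under quantile normalization 1 of the 20 calls, that of Idh1, was kept. Both Idh1 probe sets have _s_at names, so that Idh1 had no value without cross-hybridising probe sets. Under that rule 4 of 8 measured TCA cycle genes were called lower.

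**Figure D5:**
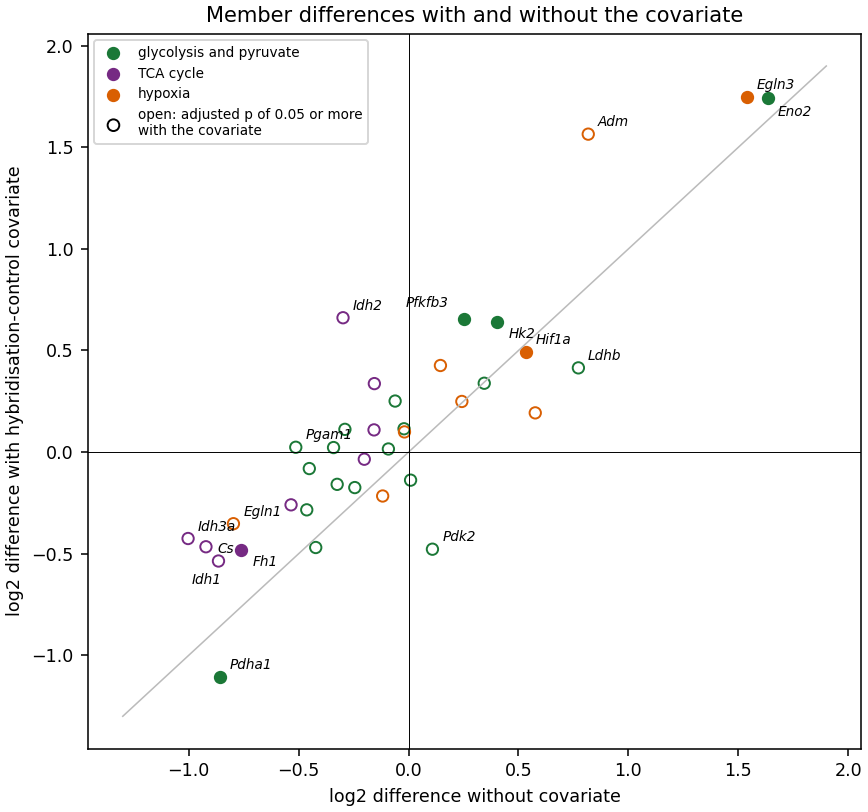
Log2 difference of each of the 37 genes in the fit without a covariate against that in the fit with the mean of the 18 hybridisation controls as a covariate. Eno2 and Egln3 stay highest in both fits, at 1.63 and 1.74 for Eno2, whereas Idh3a moves from -1.0 to -0.43.

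Calls were spread unevenly over chromosomes. On chromosome 10, 237 of 592 genes were called lower and 68 higher, and on X 179 of 439 lower and 33 higher, so that 40.0% and 40.8% of their genes were lower, beside 21.8% of all genes. The 3 of the 37 genes on chromosome 10 (Hk1, Pfkl and Cs) and the 2 on X (Pgk1 and Pdha1) were all called lower. Of the further pathway genes on chromosome 10, Bsg and Cited2 fell, Ddit4 rose (0.53 ± 0.10, adjusted p = 0.0049), and Slc16a7 and P4ha1 were not called, whereas Pdk3, Idh3g and Pfkfb1 on X all fell. Ddit4, Slc16a7, P4ha1 and Pfkfb1 were named after their values were seen. The part of chromosome position in these falls was not tested.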

How the data were processed

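RNA of 6 cultures, 3 per group, was hybridised to 1 array each. The submitters' processing notes name GCOS 1.4 and RMA. The deposited values are on a log scale whose base is not stated and which was taken as log2, since RMA returns log2 values. Each probe set was centred near its scrambled values, as seen in the file: 37.5% of 22690 probe sets were exactly 0 in scrambled array 2. Signal over background is therefore unknown, and the number of arrays limits the precision. Both deposited tables held the same values (0 cells differed).

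The 21556 probe sets that named exactly 1 gene, without the 64 controls, were averaged per gene, and the Entrez numbers of 21181 gave RefSeq names. Chromosomes come from the table, whose build is not stated. A limma fit (version 3.58.1, lmFit and eBayes, in R 4.3.3) with no covariate compared the groups over 13213 genes, adjusted by Benjamini-Hochberg, and was tested on simulated data. Single values were compared with two-sided exact permutation tests. The named genes were every listed gene found, Gapdh, Slc2a1, Sox2, and from each further pathway list the up to 3 with the smallest adjusted p. Alternatives were other probe set rules, normalizations, covariates, array weights, and each array left out. The genes and lists were chosen with earlier results of these data known.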

Additional observations from a re-analysis of the deposited data

How the results depend on the processing

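Of 854 gene values over 15 alternative settings, 705 kept their direction and side of the threshold, 90 lost the call, 22 gained it and 37 turned sign. Quantile normalization, which by construction stretches the scrambled arrays (SD over probe sets 0.089 to 0.11) toward the spread of the arrays labelled Sox2 shRNA (0.57 to 0.73), called 491 genes in place of 5090, with 0 of the 37 higher in place of 7 and 1 lower in place of 13, and medians of -0.17 for glycolysis and 0.19 for hypoxia. The probe set of highest mean gave 10 higher and 8 lower, so that the balance turned, with medians of 0.034, -0.32 and 0.54 for glycolysis, TCA cycle and hypoxia, and 5 pairs without overlap; that of largest variance gave -0.27, -0.75 and 0.49. The hybridisation control covariate gave 1908 genes, 2 lower, and medians of 0.022 and -0.26 for glycolysis and TCA cycle. The 2-fold rule left 832 genes, 2 higher and 1 lower. Without each array in turn, 3099 to 5830 genes were called, 5 to 11 higher and 8 to 14 lower, with medians of -0.15 to -0.043 for glycolysis, -0.58 to -0.45 for the TCA cycle and 0.21 to 0.29 for hypoxia, and 8 to 10 pairs. With the replicate number as a block the counts were 4920 genes, 8 higher and 12 lower (Adm gained, Pgk1 and Slc2a1 lost); same-numbered arrays did not deviate together (correlations 0.12, -0.025 and 0.17). Signs turned with array weights for Aldoa (0.0086), Aldoc (-0.073), Tpi1 (0.0023) and Pdk2 (-0.11); with median centring for Aldoc (-0.041); with the highest mean for Aldoa (0.098), Tpi1 (0.20), Pgk1 (0.034), Mdh1 (0.34), Ero1a (0.20) and Slc2a1 (0.064); with the largest variance for Aldoc (-0.24) and Ndrg1 (-0.17); with quantile normalization for Pdk2 (-0.26) and Epas1 (0.18); without cross-hybridising probe sets for Aldoa (0.098); and with the covariate for Pfkm (0.015), Aldoa (0.25), Aldoc (-0.14), Tpi1 (0.11), Pgam1 (0.024), Ldha (0.11), Pdk1 (0.022), Pdk2 (-0.48), Idh2 (0.66), Ogdh (0.34), Mdh1 (0.11) and Epas1 (0.099). Without 1 array, the ranges crossed 0 for Aldoa (-0.12 to 0.041), Aldoc (-0.076 to 0.074), Tpi1 (-0.045 to 0.022), Pdk2 (-0.15 to 0.28), Idh2 (-0.48 to 0.036) and Epas1 (-0.10 to 0.052). On centred values the probe set of highest mean is mostly that of the most positive difference. The probe set of largest variance is mostly that of the largest absolute difference. Moves under these rules are therefore partly built into the choice. Except for these rules, quantile normalization and the 2-fold rule, the cause was not tested. A filter on dim probe sets was not run, because centring removed the levels.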

Other observations

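Probe sets that name several genes, or that serve as array controls, stood outside the comparison of genes. The 3 probe sets shared by Eno1 and enolase-like sequences gave -0.92 ± 0.17, -0.64 ± 0.13 and 0.36 ± 0.12 (adjusted p = 0.0053, 0.0073 and 0.046 in a limma fit over probe sets). The first of these read -0.18, 0.056 and 0.11 in the scrambled arrays and -1.31, -0.75 and -0.72 in the arrays labelled Sox2 shRNA. The Gapdh control probe sets, for the enzyme between Tpi1 and Pgk1 in the pathway, gave -0.33 ± 0.21 at the 5′ end, -0.43 ± 0.20 in the middle and -0.044 ± 0.12 at the 3′ end (adjusted p = 0.237, 0.133 and 0.796), none of them called.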
